A study of Mus musculus with 12 samples.

Results

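Liver RNA of pregnant female NOD/SCID mice at gestation day 16 was compared with that of virgin females of the same strain, on 6 of the 12 arrays of a study that also profiled lung. All mice were 8 to 10 weeks old when the experiments began, and all carried the NOD/SCID background, an immunodeficient strain without mature T and B cells. Each group held 3 one-colour Affymetrix arrays, and each array measured equal amounts of liver RNA from 2 mice, here called a pool. Every probe set with a single gene symbol was eligible, and 1 probe set per gene, the one with the highest mean over the 6 liver arrays, gave 18193 genes from 34945 such probe sets.

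The liver of a pregnant mouse enlarges and works under placental lactogens, prolactin, oestrogens, progesterone and rising glucocorticoids. It supplies the placenta with glucose, lipids and amino acids and makes the plasma proteins that carry hormones, metals and clotting factors. Hepatocytes read lactogens and growth hormone through cytokine receptors that activate STAT5, and they handle a heavy load of secreted proteins in the endoplasmic reticulum. In the last part of gestation maternal fuel use shifts from storing lipid towards releasing it.

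The deposited values are log2 levels, so a difference of 1 is a doubling, and levels of different genes are not comparable because each probe set binds with its own strength. The median of all probe sets was 4.527, and for a gene whose mean lay below 4.6 a signal above background is not shown. Over the 45037 probe sets that are not controls, arrays of the same group correlated at 0.9917 to 0.9942 and arrays of different groups at 0.9858 to 0.9873. Poly-A spike-in RNA, which is added before labelling, gave a mean of 11.96 and 11.97 on virgin arrays 1 and 2 and 12.25 and 12.34 on pregnant arrays 1 and 2, but 4.95 on virgin array 3 and 5.33 on pregnant array 3. Both pool 3 arrays therefore stood apart, 1 in each group, and changes are also given within pools 1 and 2 and within pool 3. Hybridisation controls had a mean of 9.93 ± 0.174 in pregnant and 9.61 ± 0.059 in virgin arrays (SD, n = 3; exact two-sided permutation test, p = 0.1, which is the lowest value possible with 3 against 3, 0.6 after Benjamini-Hochberg adjustment over 6 control measures), and the part of this difference in the results was not tested. No label says how the mice were split over the arrays, so p-values measure the spread between these pools.

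Pregnancy at day 16 went with a broad remodelling of liver transcripts. In limma, a linear model with moderated variances, 1547 of 18193 genes passed a Benjamini-Hochberg adjusted p of 0.05, which is 8.5% of those tested. Of these 693 (3.81%) were higher and 854 (4.69%) lower in pregnant liver. At least 2-fold changes made up 320 of them (1.76%), 185 higher (1.02%) and 135 lower (0.742%), and at least 4-fold changes 59, 47 higher and 12 lower. In every called gene the 3 pregnant pools lay wholly above or wholly below the 3 virgin pools, which was so for 5076 of all genes (27.9%). Where such separation is described below for a called gene, it comes with the call and is no further evidence. Of the 1547 calls, 768 were kept whichever single array was left out and 700 without both pool 3 arrays, where 756 genes passed (4.16%). The change within pools 1 and 2 and that within pool 3 were within 1.5 times of each other for 1115 of the 1547. Over all genes the median change was -0.006. In bulk tissue fewer cells of a type and less RNA per cell cannot be told apart. Counts of called list members below are to be read against the shares over all genes, 3.81% higher and 4.69% lower.

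**Figure D1:**
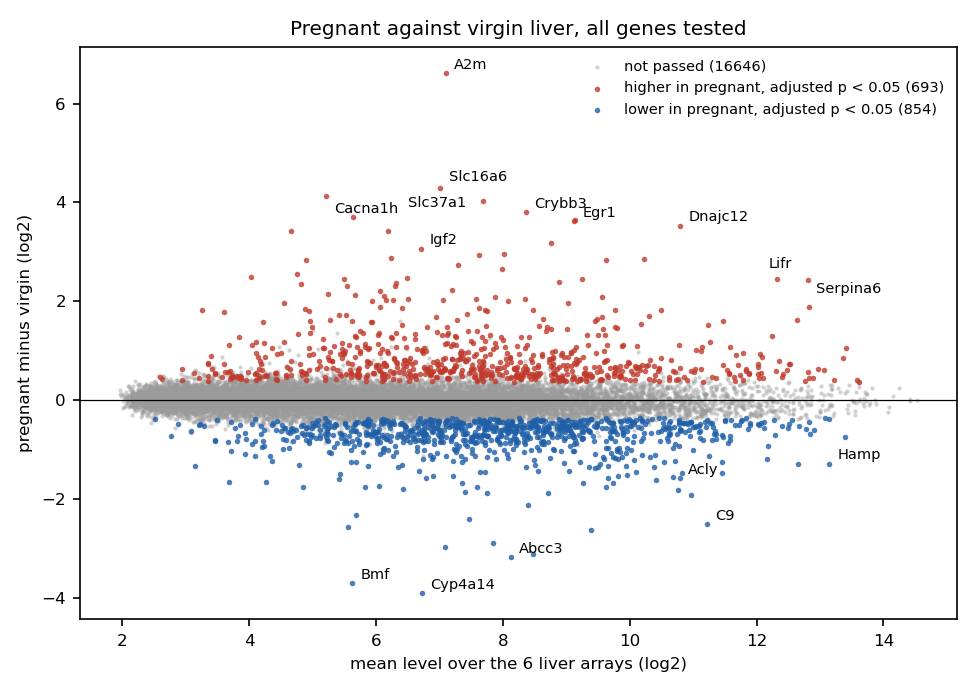
Each point is 1 of the 18193 genes, with its mean log2 level over the 6 liver arrays on the horizontal axis and its log2 change, pregnant minus virgin, on the vertical axis. The 693 genes called higher are red, the 854 called lower blue and the rest grey, and A2m stands above all others at 6.62.

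A2m, the gene of the broad protease inhibitor alpha-2-macroglobulin, had the largest rise. Levels are given here and later for pools 1 to 3 in order, and those of A2m were 3.72, 3.88 and 3.76 in virgin pools and 10.26, 10.33 and 10.63 in pregnant pools. The virgin pools lay near the floor of the arrays and the pregnant ones far above it. The change was 6.62 ± 0.12 on the log2 scale (± SE here and later, 3 pools in each group, adjusted p from limma = 1.1e-08). Slc16a6, of the monocarboxylate transporter family, went from 4.84, 5.09 and 4.65 to 8.75, 9.20 and 9.54, a rise of 4.30 ± 0.19 (adjusted p = 2.79e-06). Slc37a1, a sugar-phosphate transporter, went from 5.51, 5.55 and 5.97 to 9.46, 9.60 and 10.08, and Slc41a2, a magnesium transporter, from 7.16, 7.47 and 7.34 to 10.86, 11.01 and 11.03. In each of these genes the gap between the groups was many times the spread within them. Further large rises were those of the T-type calcium channel gene Cacna1h (4.13), the crystallin gene Crybb3 (3.80), Ripor2, which restrains the GTPase RhoA (3.71), the transcription factor gene Egr1 (3.62), the co-chaperone gene Dnajc12 (3.53), the fatty acid hydroxylase gene Cyp4a31 (3.43), the lipase-related gene Pnliprp1 (3.42) and the imprinted zinc finger gene Peg3 (3.18). The growth factor gene Igf2, the trefoil peptide gene Tff3 and Gpx3, which encodes the secreted glutathione peroxidase of plasma, rose by 3.06, 2.95 and 2.93. Igf2 lost its call when 1 array was left out, with the highest value without virgin pool 3 (adjusted p = 0.0513). A2m, Cacna1h, Ripor2, Cyp4a31 and Pnliprp1 had mean levels below 4.6 in virgin liver.

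Cyp4a14, a fatty acid omega-hydroxylase gene that PPAR-alpha induces, had the largest fall. Its levels were 8.60, 8.50 and 8.95 in virgin and 4.65, 3.99 and 5.68 in pregnant pools, and the change was -3.91 ± 0.35 (log2, SE, limma adjusted p = 0.000154), while its relative Cyp4a31 was among the largest rises. Abcc3, the pump that returns bile acids and conjugates from the hepatocyte to the blood, went from 9.65, 9.75 and 9.76 to 6.29, 6.52 and 6.81 (-3.18 ± 0.14, adjusted p = 2.67e-06). C9, the last component of the complement membrane attack complex, went from 12.51, 12.46 and 12.43 to 9.66, 10.01 and 10.19 (-2.51 ± 0.14, adjusted p = 8.97e-06). All pregnant pools of these genes lay below all virgin pools. The other large falls were those of Mfsd2a, a lysophospholipid transporter (-2.98), Ddah1, which degrades methylarginine inhibitors of nitric oxide synthase (-2.90), the sodium phosphate cotransporter family gene Slc17a2 (-2.63), the glucuronosyltransferase gene Ugt2b37 (-2.56), the chemokine gene Cxcl14 (-2.34), the gene of the small heat shock protein Hspb1 (-2.41), the steroid dehydrogenase gene Hsd3b2 (-2.12), the coenzyme A hydrolase gene Nudt7 (-1.91), the phosphoethanolamine lyase gene Etnppl (-1.88), Serpina4-ps1 (-3.12), the apoptosis gene Bmf (-3.71) and the microfilament-associated gene Gas2 (-1.87). Further probe sets did not bear out some of these: the 2 other probe sets of Bmf had changes of -0.36 and 0.09, that of Gas2 0.16, that of Etnppl -0.02, that of Cyp4a31 0.10 and that of Igf2 0.30, and none of them passed. Of 26 further probe sets of 14 of these 30 genes, 3 had the opposite sign, 10 differed in call and 0 were called in the opposite direction. Among the 243 called genes that the naming rule took, 119 had further probe sets, 24 had at least 1 of the opposite sign and in 10 all were. Such probe sets were part of those of Ripor2, Bmf, Ighm, Elovl6, Lipg, Cyp7b1, Ntrk2, Pdk1, Slc1a2, Cp, Cdt1 and Per3. Ugt2b37, Cxcl14 and Bmf had mean levels below 4.6 in pregnant liver.

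**Figure D2:**
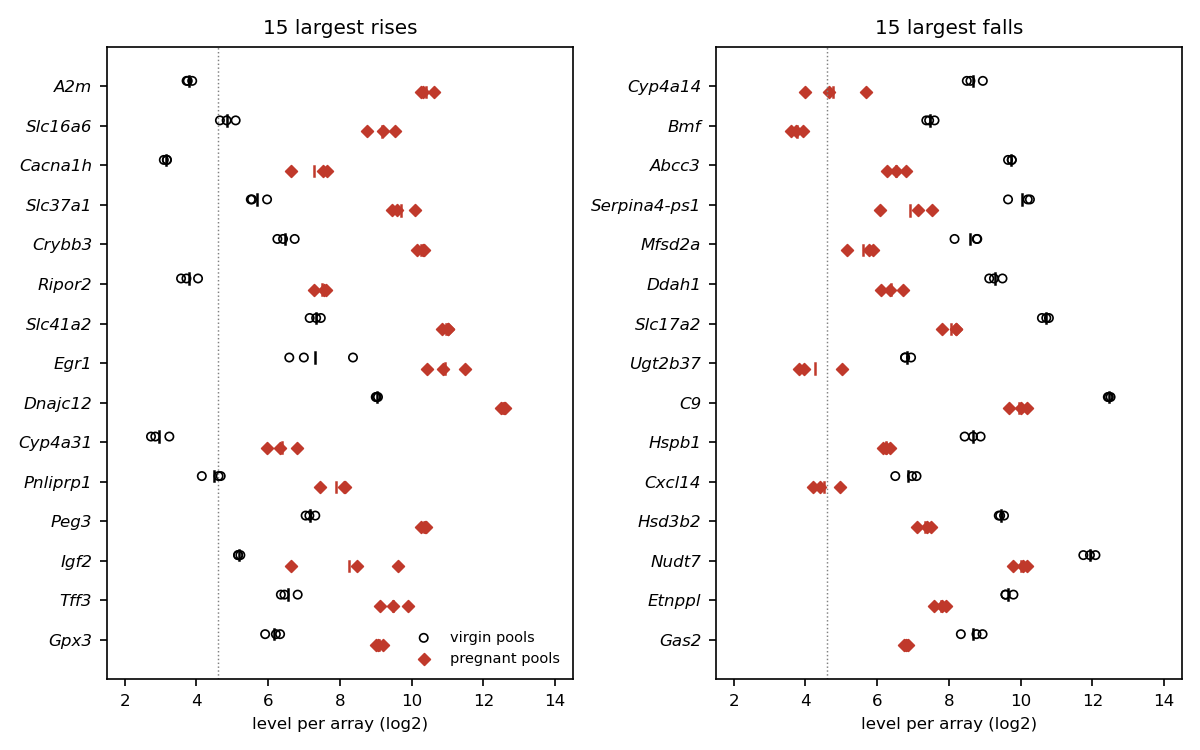
Log2 level on each of the 6 arrays for the 15 largest rises (left) and the 15 largest falls (right). Open circles are virgin pools, red diamonds pregnant pools, short bars the group means, and the dotted line is 4.6. The pregnant pools of Igf2 spread from 6.63 to 9.63, wider than those of any other gene shown.

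Genes of protein folding and quality control in the endoplasmic reticulum rose in part, and none of them fell. Of 45 measured members of the list 12 rose, 0 fell and 33 did not pass, or 26.7% higher against 3.81% of all genes, and the median change was 0.27 (log2; 0.29 within pools 1 and 2 and 0.26 within pool 3). Dnajc12, a co-chaperone of the aromatic amino acid hydroxylases, led the list, with 8.998, 9.06 and 9.02 in virgin and 12.49, 12.58 and 12.61 in pregnant pools (11.6-fold, adjusted p = 1.87e-07). No pool of either group came near the other group. Creb3l2, a membrane-bound transcription factor of secretory capacity, rose by 1.82 ± 0.13 (adjusted p = 3.76e-05). Creld2, a secreted folding factor, went from 9.14, 8.54 and 8.89 to 10.10, 10.29 and 10.48, and Pdia6, a protein disulfide isomerase, from 10.53, 10.57 and 10.73 to 11.65, 11.65 and 11.77 (adjusted p = 0.000745 and 0.000261). Hspa5, the Hsp70 of the endoplasmic reticulum known as BiP, went from 12.29, 11.96 and 12.26 to 12.69, 12.77 and 12.86, a smaller change of 0.60 ± 0.12 (adjusted p = 0.0144). Hspa5 did not pass in every fit with 1 array left out (adjusted p = 0.0505, without virgin pool 2).

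The sensor and effector genes of the unfolded protein response divided. Xbp1, whose spliced messenger encodes its main transcription factor, rose by 0.53, and the sensor kinase gene Eif2ak3 (PERK) by 0.47, while the sensor genes Ern1 and Atf6 had changes of 0.21 and 0.06 that did not pass (adjusted p = 0.28 and 0.802). The co-chaperone genes Dnajb9 and Dnajc3 and the degradation genes Syvn1 and Sel1l rose by 0.59, 0.58, 0.66 and 0.67. On the arm that stops translation, Atf4, Ddit3 and Trib3 had changes of 0.14, 0.26 and -0.24, and none passed (adjusted p = 0.581, 0.347 and 0.465), whereas Ddit4, a stress-induced brake on mTOR, rose by 0.77. Among the resident chaperones Calr, Canx, Hsp90b1 and P4hb had changes of 0.29, -0.01, 0.09 and 0.20 that did not pass. Xbp1, Eif2ak3, Dnajb9, Dnajc3, Syvn1 and Ddit4 had their calls undone by leaving out 1 array (adjusted p from 0.0692 to 0.0949, without virgin pool 1, 2 or 3).

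The promoters of the risen folding genes were searched because XBP1 and ATF6 act through the endoplasmic reticulum stress response element, here the letters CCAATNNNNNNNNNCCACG on either strand, in the 250 bases before the RefSeq gene start (GRCm38.p6). A promoter was at hand for 14452 of the 18193 genes, and 19 of these (0.131%) held the element. Of these 19 genes 6 rose, 0 fell and 13 did not pass. Among the 540 risen genes with a promoter the share was 1.11%, among the 701 fallen ones 0%, and among 39 members of the folding list 23.1% (9 genes). Of these 9, Creld2, Pdia6, Syvn1, Hspa5 and Dnajc3 rose, and the remaining 4 (Calr, Canx, Hsp90b1 and Derl3) did not pass. The other risen gene with the element was Ero1b, an oxidase of disulfide formation, which rose by 0.40 ± 0.10 (adjusted p = 0.0395). Of the 30 list members with a promoter but without these letters, 6 rose. This was 1 of 5 motifs searched. The STAT motif TTCNNNGAA was in 7.42% of all promoters, 6.3% of risen and 9.56% of fallen genes, in 3 of 20 genes of the STAT5 list and in 0 of its 4 called ones. The sterol element TCACNCCAC was in 1.27%, 0.926% and 2.14%, and in 1 of 14 cholesterol synthesis genes. The cyclic AMP element TGACGTCA was in 2.5%, 2.59% and 0.999%. The 6 risen promoters are given with the element in capitals.
Creld2, chr15:88819396-88819645, plus strand: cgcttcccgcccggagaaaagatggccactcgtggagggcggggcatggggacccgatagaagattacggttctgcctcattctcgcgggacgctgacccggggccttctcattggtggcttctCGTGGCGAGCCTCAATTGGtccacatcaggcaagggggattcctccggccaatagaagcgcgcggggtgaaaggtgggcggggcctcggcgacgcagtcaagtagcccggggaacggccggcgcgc
Pdia6, chr12:17266339-17266588, plus strand: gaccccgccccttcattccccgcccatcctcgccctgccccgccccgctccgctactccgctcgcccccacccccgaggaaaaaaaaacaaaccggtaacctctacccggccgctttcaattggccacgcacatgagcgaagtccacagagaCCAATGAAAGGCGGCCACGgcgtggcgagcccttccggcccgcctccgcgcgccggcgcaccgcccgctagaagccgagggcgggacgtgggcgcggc
Syvn1, chr19:6046326-6046575, plus strand: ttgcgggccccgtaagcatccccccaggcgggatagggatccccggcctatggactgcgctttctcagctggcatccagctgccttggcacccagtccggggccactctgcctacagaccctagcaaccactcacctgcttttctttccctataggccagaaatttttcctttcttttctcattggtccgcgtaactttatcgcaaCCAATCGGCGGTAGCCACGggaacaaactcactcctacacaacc
Hspa5, chr2:34771840-34772089, plus strand: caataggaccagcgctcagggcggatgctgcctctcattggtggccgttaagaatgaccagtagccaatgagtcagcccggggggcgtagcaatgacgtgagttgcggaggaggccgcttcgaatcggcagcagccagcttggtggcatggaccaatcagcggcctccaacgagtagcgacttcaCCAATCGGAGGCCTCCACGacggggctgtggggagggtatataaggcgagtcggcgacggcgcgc
Dnajc3, chr14:118937682-118937931, plus strand: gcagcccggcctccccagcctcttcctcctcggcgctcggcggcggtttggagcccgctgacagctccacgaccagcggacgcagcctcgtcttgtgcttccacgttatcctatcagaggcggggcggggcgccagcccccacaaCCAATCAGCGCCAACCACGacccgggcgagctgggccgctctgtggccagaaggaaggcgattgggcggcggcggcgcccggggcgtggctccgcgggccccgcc
Ero1b, chr13:12565633-12565882, plus strand: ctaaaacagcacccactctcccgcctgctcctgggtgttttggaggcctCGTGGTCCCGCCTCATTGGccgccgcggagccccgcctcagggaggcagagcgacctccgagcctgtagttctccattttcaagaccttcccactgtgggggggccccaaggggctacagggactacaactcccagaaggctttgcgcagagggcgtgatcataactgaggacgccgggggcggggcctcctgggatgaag
The capitals read CCAAT first in Pdia6, Syvn1, Hspa5 and Dnajc3 and lie on the opposite strand, CGTGG first, in Creld2 and Ero1b. A match describes the letters only and does not show binding. Ero1b lost its call when 1 array was left out, with the highest value without virgin pool 2 (adjusted p = 0.132).

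Receptor genes moved both ways, with the largest rises in Lifr and Ghr. Ghr, the growth hormone receptor gene, went from 11.89, 11.91 and 11.84 to 13.81, 13.73 and 13.78 in pregnant pools (3.71-fold, change 1.89 ± 0.09, adjusted p = 4.97e-06). Lifr, the receptor of leukaemia inhibitory factor, went from 10.97, 11.27 and 11.06 to 13.50, 13.54 and 13.63 (5.48-fold, 2.45 ± 0.11, adjusted p = 2.89e-06). In both genes the groups were narrow and far apart. Il6ra, the interleukin 6 receptor, rose by 1.32 ± 0.20, and Fgfr3 by 0.50. The vasopressin receptor gene Avpr1a, the adiponectin receptor gene Adipor2, the mineralocorticoid receptor gene Nr3c2 and the hepatocyte growth factor receptor gene Met fell (-0.51, -0.55, -0.49 and -0.39). In all, of 28 hormone receptors 4 rose, 4 fell and 20 did not pass, with a median of -0.10, and the oestrogen receptor gene Esr1 had a change of -0.34 (adjusted p = 0.121). Fgfr3, Avpr1a, Nr3c2 and Met did not pass in every fit with 1 array left out (adjusted p from 0.0813 to 0.147, without virgin pool 1 or 2).

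The list of the growth hormone and prolactin response through STAT5 holds receptor, kinase and STAT genes beside target genes. Of its 23 measured genes 4 rose, 1 fell and 18 did not pass (17.4% higher, against 3.81% of all genes, median 0.19). Beside Ghr and Lifr, which both lists hold, Irs2, an insulin receptor substrate, and Tnfsf11, the cytokine RANKL, rose by 0.61 and 0.49, and the cyclin gene Ccnd1 fell by 0.62. The feedback inhibitors of STAT5 did not pass: Cish levels were 8.18, 7.55 and 8.20 in virgin and 8.48, 8.63 and 8.42 in pregnant pools (adjusted p = 0.0954), and Socs2 levels were 10.25, 10.23 and 9.52 and 10.30, 10.34 and 9.83 (adjusted p = 0.727). The pregnant pools of Cish all lay above the virgin ones, while those of Socs2 overlapped them. Without suffixed probe sets, which can match several transcripts, Tnfsf11 had a change of -0.08. Irs2, Tnfsf11 and Ccnd1 had their calls undone by leaving out 1 array (adjusted p from 0.0775 to 0.15, without virgin pool 1 or 2 or pregnant pool 2). Tnfsf11 had a mean level below 4.6 in both groups.

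Of 23 genes of the insulin-like growth factor system 5 rose, 0 fell and 18 did not pass. Igf2, the fetal growth factor, was at 5.16, 5.16 and 5.22 in virgin pools and at 9.63, 6.63 and 8.48 in pregnant pools. The virgin pools were nearly equal, while pregnant pools 1 and 2 differed by about 3 on the log2 scale, and the change of 3.06 ± 0.58 (adjusted p = 0.0107) carries that spread. In the fetal and regeneration list, which holds Igf2, 6 of 23 genes rose, 2 fell and 15 did not pass (26.1% higher, against 3.81% of all genes). Afp, alpha-fetoprotein, was among those that did not pass, with levels of 5.29, 5.42 and 5.45 in virgin and 5.33, 4.73 and 5.53 in pregnant pools. Dlk1, an imprinted fetal gene, had levels of 4.06, 4.34 and 4.15 and 4.32, 4.49 and 3.76. In both Afp and Dlk1 the groups overlapped. Igfbp1, a binding protein that insulin represses, rose 3.27-fold, from 9.18, 9.89 and 9.27 to 11.23, 11.36 and 10.87 (adjusted p = 0.00081). Igfbp2 and the clearance receptor gene Igf2r rose by 0.54 and 0.58. Igf1, the main circulating growth factor, differed by -0.30 without passing the test (adjusted p = 0.0927). Igfbp2 and Igf2r lost their calls when 1 array was left out, with the highest values without virgin pool 1 (adjusted p = 0.0819 and 0.108).

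Genes of steroid handling moved in both directions (5 of 26 rose and 6 fell). Serpina6, corticosteroid-binding globulin, the plasma carrier of corticosterone, was at 11.48, 11.76 and 11.56 in virgin and 14.02, 14.02 and 14.04 in pregnant pools, a rise of 2.42 ± 0.11 (adjusted p = 2.79e-06). Cyp17a1, the 17-hydroxylase of steroid synthesis, rose 3.91-fold, Akr1c18, which inactivates progesterone, 2.39-fold, and the oxysterol hydroxylase gene Cyp7b1 1.75-fold (adjusted p = 0.000161, 0.00123 and 0.00777). Hsd3b2 went from 9.39, 9.54 and 9.43 to 7.11, 7.50 and 7.39 and Hsd17b13, a lipid droplet protein, fell by 0.63. Of 22 glucocorticoid response genes 6 rose, 0 fell and 16 did not pass (27.3% higher, against 3.81% of all genes), with a median of 0.38 (log2; 0.50 within pools 1 and 2 and 0.36 within pool 3). The 6 that rose were Serpina6, the metallothionein genes Mt1 and Mt2, Igfbp1, Ddit4 and the tyrosine aminotransferase gene Tat, which rose by 0.61. Several of them stand in other lists as well. Fkbp5, Tsc22d3, Per1, Sgk1, Zbtb16 and Klf9 were among those that did not pass. At an unadjusted p under 0.05 in limma 11 members were higher and 3 lower, and the lowest change was -0.69. The list was not split into genes that glucocorticoids induce and genes that they repress. Tat did not pass in every fit with 1 array left out (adjusted p = 0.16, without virgin pool 2). The other probe set of Hsd17b13 had a change of 0.024 and did not pass.

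Nearly all genes of cholesterol synthesis fell in pregnant liver, and the pathway had the highest share of called members among all 67 lists. Of 17 measured enzymes 0 rose, 15 fell and 2 did not pass, or 88.2% lower against 4.69% of all genes, with a median of -0.76 (log2; -0.83 within pools 1 and 2 and -0.56 within pool 3). Lss, which closes the sterol ring, had levels of 9.68, 9.76 and 9.87 in virgin and 8.17, 8.33 and 8.48 in pregnant pools (-1.44 ± 0.11, adjusted p = 8.61e-05). Pmvk of the mevalonate pathway went from 10.02, 10.26 and 10.11 to 8.45, 8.77 and 9.07 and Fdps, the farnesyl diphosphate synthase, from 11.40, 11.58 and 11.54 to 10.35, 10.45 and 10.70. In each the highest pregnant pool lay below the lowest virgin pool. Dhcr7 and Hsd17b7, late steps of the pathway, fell (-0.97 and -0.97), and the early enzymes Hmgcs1, Mvk and Idi1 (-0.57, -0.65 and -0.80). The monooxygenase gene Sqle, the squalene synthase gene Fdft1 and the demethylase gene Cyp51 fell (-0.82, -0.68 and -0.76). The 2 members that did not pass, Mvd and Tm7sf2, had changes of -0.59 and -0.23. Mvk had its call undone by leaving out 1 array (adjusted p = 0.0871, without virgin pool 3). The other probe set of Fdps had a change of -0.13 and did not pass.

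The regulators of sterol balance were divided: of 16, 2 rose, 6 fell and 8 did not pass. Srebf2, the transcription factor of sterol synthesis, fell by 0.53, as did Insig1, its sterol-dependent brake and also its target (-0.83). Scap, the escort of that factor, rose by 0.41, and Tmem97, a sterol-responsive membrane protein, by 1.09. The heterodimeric sterol exporter genes Abcg5 and Abcg8 fell together, from 10.11, 10.23 and 10.20 to 8.93, 8.84 and 8.90 and from 8.56, 8.72 and 8.72 to 7.90, 7.60 and 7.97 (adjusted p = 6.01e-05 and 0.00306). All 3 pregnant pools of each lay below all virgin pools. The cholesterol carriers Stard4 and Npc1 fell (-0.65 and -0.57). Srebf2, Scap, Stard4 and Npc1 lost their calls when 1 array was left out, with the highest values without virgin pool 1 or 2 (adjusted p from 0.0521 to 0.144).

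Many genes of fatty acid synthesis fell, from the cleavage of citrate to elongation. Of 22 measured genes 3 rose (13.6%, against 3.81% of all genes), 12 fell (54.5%, against 4.69%) and 7 did not pass. The list median was -0.48 (log2), with -0.47 within pools 1 and 2 and -0.59 within pool 3. Acly, which makes cytosolic acetyl-CoA, had levels of 11.46, 11.58 and 11.70 in virgin and 9.87, 9.86 and 10.25 in pregnant pools (3-fold lower, adjusted p = 0.000117). Fasn, the fatty acid synthase, went from 10.60, 10.54 and 10.63 to 8.97, 9.04 and 9.14 (2.9-fold lower, adjusted p = 2.49e-05), and Elovl6, the elongase of palmitate, from 10.69, 10.64 and 10.19 to 8.74, 8.57 and 8.90 (3.41-fold lower, adjusted p = 0.000123). Pregnant pool 3 of Elovl6 lay nearest to the virgin pools, with a pool 3 change of -1.30 against -2.01 in pools 1 and 2. Me1, which supplies NADPH, and the desaturase gene Scd1 fell (-1.51 and -1.30). The transcription factor genes Srebf1 and Mlxipl (ChREBP), which drive this pathway, fell (-1.25 and -0.76). The desaturases of polyunsaturated fatty acids went the other way: Fads1 went from 11.58, 11.49 and 11.67 to 12.39, 12.44 and 12.71 and Fads2 from 9.81, 10.03 and 9.94 to 10.61, 10.58 and 10.99 (adjusted p = 0.00137 and 0.00552). Tecr, the last enzyme of the elongation cycle, rose by 0.70. Tecr did not pass in every fit with 1 array left out (adjusted p = 0.0574, without virgin pool 3).

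**Figure D3:**
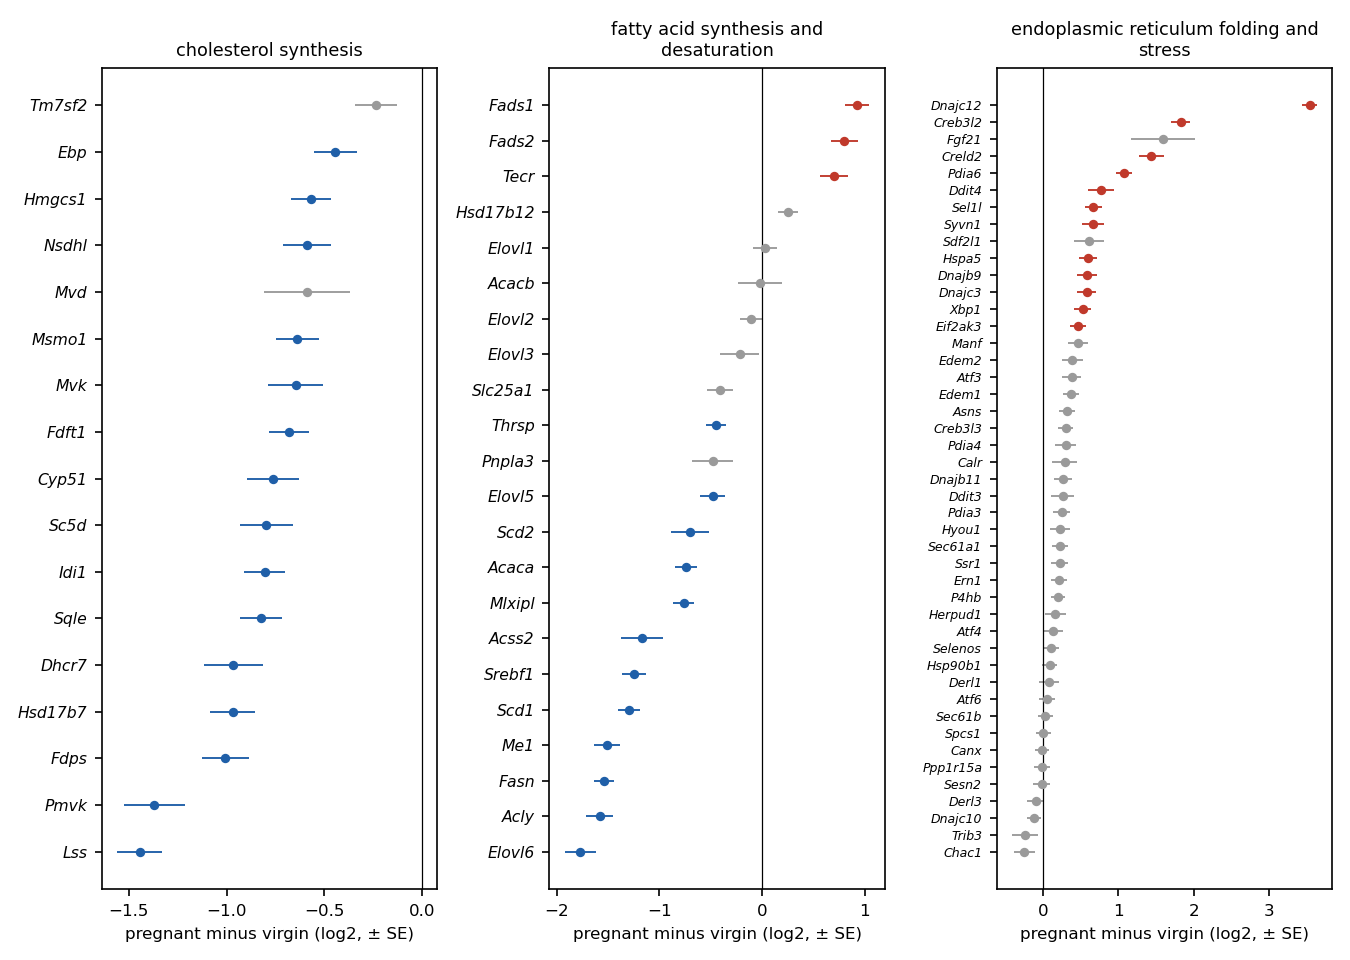
Log2 change of every measured member of 3 gene lists, with its standard error (n = 3 pools per group). Blue marks genes called lower, red genes called higher and grey genes that did not pass. In the cholesterol list 15 of 17 are blue, in the fatty acid list 12 are blue and 3 red, and in the endoplasmic reticulum list 12 of 45 are red.

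Cd36 and Lpl, which serve fatty acid uptake, rose. Cd36, the fatty acid translocase, went from 6.75, 6.82 and 6.996 to 8.36, 8.84 and 8.75 (3.46-fold, adjusted p = 8.55e-05), and Lpl, the lipoprotein lipase, from 8.90, 9.14 and 9.04 to 10.58, 10.29 and 10.66 (2.79-fold, adjusted p = 0.000123). The groups were well apart in both. The droplet coat gene Plin2, the lipase inhibitor gene G0s2 and the lipase cofactor gene Abhd5 rose by 0.72, 0.97 and 0.62, whereas the acyltransferase genes Agpat2 and Gpam, which build glycerolipids, fell (-1.15 and -0.54). Among the 27 genes of triglyceride synthesis and droplets 5 rose, 2 fell and 20 did not pass (median 0.09). Of 24 lipoprotein genes 5 rose (20.8%, against 3.81% of all genes), 3 fell (12.5%, against 4.69%) and 16 did not pass. Apoc2, the activator of lipoprotein lipase, rose by 1.30 and Angptl8, which inhibits that lipase, by 0.75. The endothelial lipase gene Lipg fell by 1.76 and the phospholipid transfer protein gene Pltp also fell (-0.64). Plin2, G0s2, Angptl8 and Pltp had their calls undone by leaving out 1 array (adjusted p from 0.0623 to 0.104, without virgin pool 1, 2 or 3). Lipg had a mean level below 4.6 in pregnant liver.

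Fatty acid oxidation was nearly at the background: of 28 genes 1 rose, 1 fell and 26 did not pass, with a median of -0.01. Acot2, a mitochondrial thioesterase, rose by 0.63 and the peroxisomal thiolase gene Acaa1b fell by 0.68. The gate enzyme gene Cpt1a had a change of 0.09 (adjusted p = 0.738). Other PPAR-alpha targets diverged (4 of 19 rose and 1 fell). Vnn1, a pantetheinase, rose 4.23-fold (adjusted p = 0.000144) and Acot4 by 0.78, beside the opposite changes of Cyp4a14 and Cyp4a31. Fgf21, a fasting hormone, had levels of 5.66, 5.64 and 5.47 in virgin and 6.80, 6.32 and 8.41 in pregnant pools. All pregnant pools lay above the virgin ones, but pool 3 stood far above the other pregnant pools, and the change of 1.59 ± 0.43 did not pass (adjusted p = 0.0514). Acot2 and Acot4 lost their calls when 1 array was left out, with the highest values without virgin pool 2 or pregnant pool 1 (adjusted p = 0.0702 and 0.0735).

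Several bile acid transporter genes fell. In the list of bile acid transport and its control by FXR, which also holds receptor genes, 7 of 23 genes fell (30.4%, against 4.69% of all genes) and 0 rose, with a median of -0.32 (log2; -0.39 within pools 1 and 2 and -0.43 within pool 3). Beside Abcc3, the sodium-dependent bile acid importer gene Slc10a1 (NTCP) fell from 12.73, 12.55 and 12.68 to 11.77, 11.82 and 11.55 (-0.94 ± 0.11, adjusted p = 0.00103), the organic anion importer genes Slco1a4 and Slco1b2 (-1.07 and -0.70), and the basolateral pump gene Abcc4 (-0.75). Nr0b2 (SHP), the repressor that bile acids induce through FXR, fell by 0.70, and the canalicular flippase gene Atp8b1 (-0.58). The canalicular export pump gene Abcb11 had a change of -0.13 (adjusted p = 0.566). Of 19 genes of bile acid synthesis 2 rose, 3 fell and 14 did not pass. Cyp39a1, Cyp27a1 and the conjugating enzyme gene Baat fell (-1.81, -0.89 and -0.75), and Cyp7b1 and Cyp46a1 rose by 0.81 and 0.86. Cyp7a1, the rate-limiting enzyme, had levels of 11.25, 10.84 and 10.50 in virgin and 11.44, 11.22 and 11.32 in pregnant pools, a change that did not pass (adjusted p = 0.153) and whose groups overlapped. Slco1a4 and Nr0b2 did not pass in every fit with 1 array left out (adjusted p = 0.0708 and 0.0863, without virgin pool 2 or 3). The other probe set of Cyp27a1 had a change of -0.135 and did not pass.

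Genes of glucose use fell in part. Of 28 genes of glycolysis and glucose uptake 1 rose, 11 fell and 16 did not pass, or 39.3% lower against 4.69% of all genes. The list median was -0.32 (log2), with -0.41 within pools 1 and 2 and -0.33 within pool 3. Slc2a2, the glucose transporter of hepatocytes, went from 11.90, 11.79 and 11.75 to 10.86, 10.61 and 10.56 (-1.14 ± 0.11, adjusted p = 0.000333). Khk, the ketohexokinase that traps fructose, went from 11.12, 11.29 and 11.09 to 10.09, 9.67 and 9.97 (-1.25 ± 0.13, adjusted p = 0.000393). Pklr, the liver pyruvate kinase, fell by 0.83, the pyruvate dehydrogenase subunit genes Dlat and Pdha1 (-0.67 and -0.47), and the kinase genes Pdk1 and Pdk2, which shut that enzyme down (-0.80 and -0.63). Ldha, a lactate dehydrogenase subunit, was the member that rose (0.63). Aldoc fell by 1.01, but its probe set without suffix had a change of 0.07. Pdha1, Pdk2 and Aldoc had their calls undone by leaving out 1 array (adjusted p from 0.0752 to 0.107, without virgin pool 1 or 3).

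Of 32 genes of gluconeogenesis and glycogen 2 rose (6.25%, against 3.81% of all genes), 7 fell (21.9%, against 4.69%) and 23 did not pass. Beside Slc37a1, the glycogen synthase gene Gys2 rose by 0.59. The glycogen branching enzyme gene Gbe1, the phosphorylase gene Pygl and Ppp1r3b, which targets a phosphatase to glycogen, fell (-0.85, -0.46 and -1.15). The gate enzyme genes of glucose release did not pass: Pck1 had levels of 11.25, 11.21 and 11.46 in virgin and 11.15, 11.23 and 10.66 in pregnant pools (adjusted p = 0.319), and G6pc of 9.92, 8.97 and 10.08 and 9.83, 10.65 and 9.75 (adjusted p = 0.485), and the groups overlapped in both. Of 19 citrate cycle genes 1 rose (5.26%) and 5 fell (26.3%), with a median of -0.27. The citrate synthase gene Cs and the isocitrate dehydrogenase subunit gene Idh3b fell (-0.54 and -0.45), and Idh2 rose by 0.55. Of 48 subunits of the respiratory chain 0 rose, 6 fell (12.5%) and 42 did not pass. The list median was -0.26 (log2), with -0.30 within pools 1 and 2 and -0.16 within pool 3. Ndufs7 and Cox7a2 fell (-0.57 and -0.53). Gys2, Pygl, Cs, Idh3b and Idh2 lost their calls when 1 array was left out, with the highest values without virgin pool 1 or 3 (adjusted p from 0.0829 to 0.137).

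Amino acid breakdown genes fell in part, with 10 of 46 down (21.7%, against 4.69% of all genes) and 1 up. Prodh, the proline dehydrogenase, went from 10.65, 10.56 and 10.55 to 8.74, 9.15 and 8.80 (3.23-fold lower, adjusted p = 5.97e-05). Csad, which makes hypotaurine, fell by 1.19, the lysine enzyme gene Aass (-0.66), and the tryptophan pathway genes Tdo2, Kynu and Afmid (-0.54, -0.62 and -0.48). The aminotransferase genes Got1, Gpt and Agxt2 fell (-0.69, -0.59 and -0.58), while Tat rose. The urea cycle list had 0 of 15 genes up and 1 down (6.67%, against 4.69% of all genes), the glycerol channel gene Aqp9 (-0.45). In methionine and folate metabolism 4 of 35 rose (11.4%, against 3.81% of all genes) and 3 fell (8.57%, against 4.69%). The mitochondrial folate enzyme gene Mthfd2, the serine synthesis genes Psph and Phgdh and the spermidine synthase gene Srm rose by 0.83, 0.67, 0.44 and 0.44. Of 19 aminoacyl-tRNA synthetases 3 rose and 0 fell, those for cysteine, threonine and tryptophan (Cars 1.34, Tars 0.68 and Wars 0.53). Afmid, Got1, Aqp9, Psph, Phgdh, Srm and Wars did not pass in every fit with 1 array left out (adjusted p from 0.0905 to 0.175, without virgin pool 1, 2 or 3 or pregnant pool 2).

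Transporters were among the largest changes in both directions. Slc6a9, a glycine transporter, went from 8.01, 7.97 and 8.07 to 10.36, 10.35 and 10.70 (5.47-fold, adjusted p = 4.52e-06), and Slc43a1, a transporter of large neutral amino acids, rose by 1.27. Slc1a2, a glutamate transporter, Slc7a7, a subunit of basic amino acid exchange, and the proton-coupled carrier gene Slc36a1 rose by 1.05, 0.99 and 1.00. Slc38a4, a sodium-coupled neutral amino acid importer of hepatocytes, fell from 11.60, 11.50 and 11.61 to 9.90, 10.04 and 10.32 (-1.48 ± 0.13, adjusted p = 0.000122), and the cationic importer gene Slc7a2 (-0.72). In the amino acid list 6 rose, 3 fell and 25 did not pass of 34. Of 38 other carriers 7 rose, 7 fell and 24 did not pass. The neighbouring phosphate cotransporter family genes Slc17a1, Slc17a2 and Slc17a3 all fell (-1.74, -2.63 and -1.25), and the organic anion transporter gene Slc22a27 (-0.87). The lactate transporter gene Slc16a1 rose by 0.69, the organic cation transporter gene Slc22a2 by 1.61 and another magnesium carrier gene, Slc41a3, by 0.84. Slc7a2 had its call undone by leaving out 1 array (adjusted p = 0.0629, without virgin pool 3). Slc22a2 had a mean level below 4.6 in virgin liver.

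**Figure D4:**
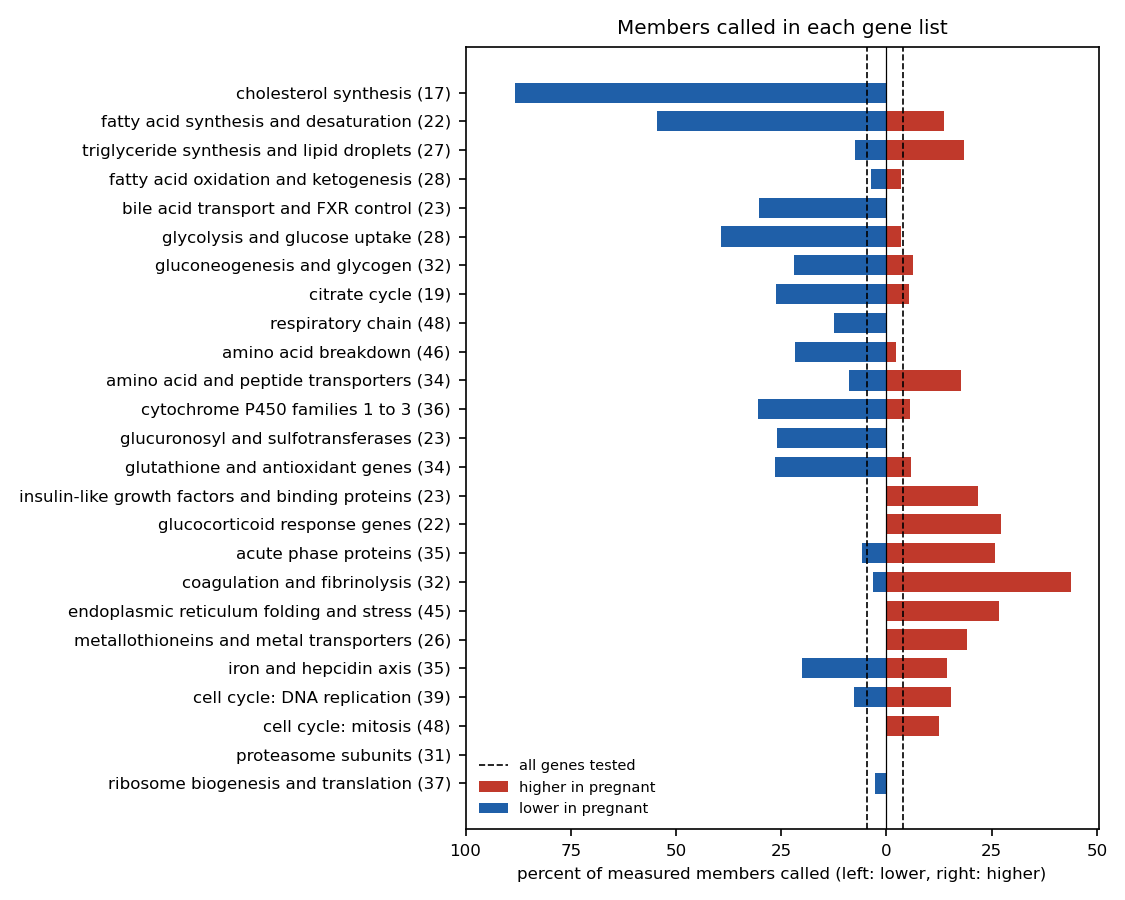
Share of the measured members of 25 of the 67 gene lists (number measured in brackets) that was called lower (blue, to the left) or higher (red, to the right) in pregnant liver, in percent. Dashed lines mark the share over all genes tested, 4.69% lower and 3.81% higher. The lists of cell markers are drawn elsewhere, and of those shown here cholesterol synthesis reaches 88.2% lower and coagulation and fibrinolysis 43.8% higher.

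Fewer members were called without both pool 3 arrays, where 4 arrays remain. Of the calls over all arrays there stood 12 of 15 lower genes of cholesterol synthesis, 9 of 12 of fatty acid synthesis, 5 of 7 of bile acid transport, 6 of 11 of glycolysis and 7 of 11 cytochromes P450. The higher genes that stood were 5 of 12 of the folding list, 6 of 14 of coagulation, 5 of 9 of the acute phase, 5 of 6 of the glucocorticoid response and 4 of 7 neutrophil markers. None stood among the 5 lower citrate cycle and 6 lower respiratory chain genes (0 of each).

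Drug-metabolising genes fell in part. Of 36 cytochromes P450 of families 1 to 3 2 rose, 11 fell and 23 did not pass (30.6% lower). Cyp2b10, a classical target of the xenobiotic receptor CAR, went from 8.52, 8.61 and 8.87 to 7.71, 7.48 and 7.30 (-1.17 ± 0.14, adjusted p = 0.00103). The related Cyp2b13 and Cyp2b9 fell (-1.62 and -0.49), and Cyp2c37, Cyp2c50, Cyp2c54 and Cyp2f2 (-1.19, -0.93, -0.84 and -0.70). Cyp3a16, a fetal form, rose 3.11-fold and Cyp2d40 2.04-fold (adjusted p = 0.000123 and 0.00175). These genes lie in families of near-identical copies, so probe sets may share transcripts. Among glucuronosyl- and sulfotransferases 0 rose and 6 of 23 fell: Ugt2b37 led, and Sult1d1, Sult5a1, Ugt3a1 and Ugdh, which makes the glucuronate donor, fell (-1.08, -0.91, -0.81 and -0.80). In the glutathione list 2 rose, 9 fell and 23 did not pass of 34. Mgst3, Gstt1, Gsta4 and the peroxidase gene Gpx1 fell (-1.28, -0.87, -0.84 and -0.75), as did Gclm of glutathione synthesis (-0.64), while Gstt3 and Gstp1 rose by 0.94 and 0.63. Cyp2b9 and Gclm lost their calls when 1 array was left out, with the highest values without virgin pool 1 or pregnant pool 2 (adjusted p = 0.0594 and 0.0901). The other probe set of Mgst3 had a change of 0.095 and did not pass.

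Genes that differ between male and female liver did not shift one way. The 22 female-biased genes had 6 rises (27.3%) and 5 falls (22.7%), and the 26 male-biased genes 4 rises (15.4%) and 6 falls (23.1%). In both lists and both directions these shares were above those over all genes, 3.81% higher and 4.69% lower. Among the female-biased ones Cyp17a1, Cyp3a16, Gstt3 and Acot4 rose, and Cyp4a14, Cyp39a1, Cyp2b13 and the neurotrophin receptor gene Ntrk2 (-1.77) fell. Among the male-biased ones C9, Nudt7, the carboxylesterase gene Ces2e (-1.03) and the urinary protein gene Mup3 (-0.61) fell, and Cyp7b1, C8a (0.91) and Alas2 (1.16) rose. By position in the lobule, 2 pericentral genes rose (6.67%) and 6 fell (20%) of 30, and 3 periportal genes rose (10.7%) and 5 fell (17.9%) of 28. Pericentral Lhpp and Slc1a2 and periportal Aldh1b1 rose, by 1.07, 1.05 and 1.60, and pericentral Lect2 and periportal Ctsc fell (-0.82 and -0.73). The other probe set of Mup3 had a change of 0.076 and did not pass.

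Genes of clotting factors rose in part. Of 32 genes of coagulation and fibrinolysis 14 rose, 1 fell and 17 did not pass, so 43.8% were higher against 3.81% of all genes, with a median of 0.31 (log2; 0.32 within pools 1 and 2 and 0.36 within pool 3). F7, the initiator of the extrinsic pathway, went from 10.52, 10.46 and 10.44 to 11.96, 11.96 and 12.05 (2.85-fold, 1.51 ± 0.10, adjusted p = 2.23e-05). F10 went from 12.18, 12.16 and 12.17 to 12.80, 12.87 and 13.04 and the cofactor gene F5 from 11.36, 11.43 and 11.28 to 12.04, 11.96 and 12.18 (adjusted p = 0.00242 and 0.0033). In all of these the pregnant pools lay above the virgin pools. F11, F12, F9 and prothrombin (F2) rose by 0.65, 0.40, 0.40 and 0.44. Inhibitors rose too: Serpina10, the inhibitor of factor X, by 0.79, heparin cofactor (Serpind1) by 0.59 and antiplasmin (Serpinf2) by 0.45, while Pros1, the anticoagulant protein S, fell by 0.42. Vwf, the von Willebrand factor of endothelium and platelets, rose 5.58-fold, from 5.39, 5.18 and 5.19 to 7.34, 7.79 and 8.07. The fibrinogen chain genes Fga, Fgb and Fgg had changes of 0.24, 0.13 and 0.12 that did not pass (adjusted p = 0.212, 0.486 and 0.499). F12, F9, F2, Serpinf2 and Pros1 did not pass in every fit with 1 array left out (adjusted p from 0.0708 to 0.131, without virgin pool 1 or 2).

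Acute phase genes rose in part, with 9 of 35 higher (25.7%), 2 lower and a median of 0.29. After A2m the largest rises were those of Lbp, which binds bacterial lipopolysaccharide (1.12), the copper oxidase ceruloplasmin (Cp, 1.06) and Itih4 (0.85). Saa1 and Hp did not pass: the serum amyloid gene Saa1 had levels of 9.14, 9.99 and 9.82 in virgin and 9.61, 11.08 and 11.14 in pregnant pools (adjusted p = 0.171), and Hp, haptoglobin, had a change of 0.26 (adjusted p = 0.157). Virgin and pregnant pools of Saa1 overlapped. Orm3 fell by 1.10, and Crp and Saa3 rose by 0.44 and 0.76. In the complement list 3 of 29 rose (C8a, C2 and Vtn, by 0.91, 0.55 and 0.40) and 4 fell, among them C9, C8b and Fcna (-2.51, -0.55 and -0.59). Subunits of 1 complex, C8a and C8b, thus changed in opposite directions. Crp, Saa3, C2, Vtn and C8b had their calls undone by leaving out 1 array (adjusted p from 0.0527 to 0.128, without virgin pool 1, 2 or 3).

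The metallothionein genes Mt1 and Mt2 rose. Mt2 went from 10.02, 9.72 and 9.01 to 11.36, 11.49 and 11.35 in pregnant pools (3.52-fold, 1.82 ± 0.22, adjusted p = 0.00103) and Mt1 from 10.94, 10.76 and 10.29 to 12.19, 12.35 and 12.28 (3.05-fold, 1.61 ± 0.16, adjusted p = 0.000326). Mt1 and Mt2, whose products bind zinc and copper, were higher in all pregnant pools, while the other metallothionein genes measured, Mt3 and Mt4, did not pass. Slc39a14, an importer of zinc and iron, rose by 0.80, the zinc importer gene Slc39a5 by 0.59 and Cp by 1.06, and 0 of 26 genes of the list fell. The promoters of Mt1 and Mt2, neighbouring genes on chromosome 8, were searched for the core of the metal response element, TGCACNC or TGCGCNC on either strand. In the 250 bases before the RefSeq gene start it occurs in 30.6% of all promoters, in 1 place in Mt1 and in 3 places in Mt2. Sequence beyond that start was not searched, so the counts need not be those of the whole promoter. The matches are shown in capitals in the RefSeq sequence (GRCm38.p6).
Mt1, chr8:94178839-94179088, plus strand: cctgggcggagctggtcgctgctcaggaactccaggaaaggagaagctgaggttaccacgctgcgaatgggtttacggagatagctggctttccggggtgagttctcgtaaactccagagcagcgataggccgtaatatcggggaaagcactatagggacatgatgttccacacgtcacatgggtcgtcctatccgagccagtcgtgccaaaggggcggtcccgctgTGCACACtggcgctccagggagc
Mt2, chr8:94172368-94172617, plus strand: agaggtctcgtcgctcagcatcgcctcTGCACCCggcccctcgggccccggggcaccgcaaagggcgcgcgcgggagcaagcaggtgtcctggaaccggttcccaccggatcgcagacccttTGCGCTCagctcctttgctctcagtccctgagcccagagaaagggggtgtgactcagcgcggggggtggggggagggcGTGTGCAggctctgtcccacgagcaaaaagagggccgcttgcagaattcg
The share with this core was 32.2% among risen and 30% among fallen genes, and 54.2% among the 24 genes of the metal list with a promoter (13 genes), of which 3 of the 4 called ones held it. Slc39a5 lost its call when 1 array was left out, with the highest value without virgin pool 3 (adjusted p = 0.114).

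In iron handling 5 of 35 genes rose (14.3%, against 3.81% of all genes) and 7 fell (20%, against 4.69%). Hamp, hepcidin, the hormone that blocks iron release into plasma, went from 13.81, 13.68 and 13.88 to 12.27, 12.51 and 12.72 (2.44-fold lower, -1.29 ± 0.13, adjusted p = 0.00037). Bmp6, the ligand that induces hepcidin, went from 5.66, 5.82 and 5.98 to 4.61, 4.97 and 5.02 and Smad7, an inhibitor of that pathway, fell by 0.85. Every pregnant pool of Hamp and Bmp6 lay below the virgin pools. Other readouts of the same pathway went up: Id1 from 7.54, 8.11 and 7.66 to 8.89, 8.93 and 9.33 and Smad6 by 0.88 (adjusted p = 0.00196 and 0.00214). Tfrc, the transferrin receptor that iron deficiency stabilises, rose 2.84-fold (adjusted p = 0.00157), and the iron-sensing genes Aco1 and Ireb2 fell (-0.52 and -0.54). Fgl1, a hepatocyte protein that binds BMP ligands, rose by 0.61. The ferritin gene Fth1 and the hepcidin regulators Tfr2 and Hjv had changes of 0.01, 0.23 and 0.03 that did not pass. Smad7, Aco1 and Ireb2 did not pass in every fit with 1 array left out (adjusted p from 0.0649 to 0.0828, without virgin pool 1 or 3).

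Retinoid and vitamin genes moved both ways: 4 of 33 rose (12.1%, against 3.81% of all genes) and 7 fell (21.2%, against 4.69%). Lrat, which esterifies retinol for storage in stellate cells, went from 8.46, 8.38 and 8.24 to 6.82, 7.11 and 6.79 (2.74-fold lower, adjusted p = 0.000115), and the reductase genes Rdh11 and Dhrs3 fell (-0.89 and -0.54). Bco1, which cleaves carotene to retinal, and Aldh1a7 rose by 1.49 and 1.63. The enzymes that break down retinoic acid went apart, Cyp26a1 up by 1.05 and Cyp26b1 down (-0.69). Beside Lrat, the stellate markers Ecm1 and Hand2 fell (-0.64 and -0.50), and 11 of 14 stellate and fibroblast markers did not pass. The summed log2 level of the 14 markers was 12.8, 12.8 and 12.8 in virgin and 12.6, 12.5 and 12.7 in pregnant pools. Lrat is itself a member of this list and adds to the sum. The part of stellate cells in the fall of Lrat was not tested. Cyp26b1, Ecm1 and Hand2 had their calls undone by leaving out 1 array (adjusted p from 0.0576 to 0.134, without virgin pool 2 or 3). The 2 other probe sets of Hand2 had changes of 0.078 and 0.108 and did not pass.

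Cell cycle genes rose in part. Of 48 mitosis genes 6 rose, 0 fell and 42 did not pass (12.5% higher, against 3.81% of all genes), and of the 6 calls 0 stood without both pool 3 arrays and 3 with the pool number as a block. The list had a median of 0.54 (log2; 0.37 within pools 1 and 2 and 0.98 within pool 3), a larger shift within pool 3. Hmmr, a spindle protein, went from 3.74, 4.57 and 4.01 to 4.96, 5.61 and 5.73 (1.33 ± 0.24, adjusted p = 0.00897) and Ccna2, cyclin A, from 4.80, 5.81 and 5.48 to 6.17, 6.41 and 6.67 (1.06 ± 0.24, adjusted p = 0.0238). The proliferation marker gene Mki67 rose by 0.95. Virgin pool 2 stood above the other virgin pools for several of these genes, and Birc5 (3.37, 5.16 and 4.37 in virgin and 5.82, 4.78 and 6.53 in pregnant pools) overlapped and did not pass (adjusted p = 0.116). Of 39 replication genes 6 rose, 3 fell and 30 did not pass: the licensing factor Cdt1 and the cyclin genes Ccne1 and Ccne2 rose by 0.92, 0.68 and 0.94, and Mcm10 and the thymidine kinase gene Tk1 fell (-1.22 and -0.82). Ccnd1, the cyclin of entry into the cycle, fell. Markers of erythroid cells, which also divide, are given with the other cell types. Ccna2, Mki67 and Cdt1 lost their calls when 1 array was left out, with the highest values without virgin pool 3 or pregnant pool 3 (adjusted p from 0.0715 to 0.116). Hmmr and Ccne2 had mean levels below 4.6 in virgin liver. The 4 further probe sets of Hmmr had changes of 0.085 to 0.361 and did not pass.

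Of 39 genes of growth control and cell death 6 rose, 5 fell and 28 did not pass. Gadd45b, a stress-induced growth regulator, and Btg2, an antiproliferative gene, rose by 1.32 and 0.92, the pro-apoptotic genes Bik, Bid and Casp6 fell (-1.01, -0.44 and -0.53), and Bcl2l1 and Bcl2l11, which oppose each other in cell survival, both rose, by 0.56 and 0.82. Peg3 had levels of 7.31, 7.15 and 7.04 in virgin and 10.27, 10.38 and 10.40 in pregnant pools, without overlap. Among 29 imprinted genes 4 rose (13.8%, against 3.81% of all genes): Peg3, Igf2, Igf2r and Phlda2, a growth suppressor of placenta (1.35). The 2 that fell were Slc38a4 and Dhcr7 (6.9%, against 4.69%), so the imprinted growth genes did not move as 1 group. Lgals1, a lectin of growing cells, and Tff3 rose in the fetal and regeneration list, where 6 rose, 2 fell and 15 did not pass of 23. Lgals1 changed by 1.44 ± 0.16. Bid, Bcl2l1 and Phlda2 did not pass in every fit with 1 array left out (adjusted p from 0.0523 to 0.124, without virgin pool 1 or 2 or pregnant pool 3). Phlda2 had a mean level below 4.6 in virgin liver.

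Immediate early genes, which respond to stimuli within minutes, rose in part (4 of 23, or 17.4% against 3.81% of all genes, and 0 fell). Egr1 had levels of 6.99, 8.36 and 6.59 in virgin and 10.88, 11.50 and 10.42 in pregnant pools, and Fos of 4.92, 5.05 and 4.91 and 6.20, 8.05 and 7.26 (changes 3.62 ± 0.42 and 2.21 ± 0.36, adjusted p = 0.000802 and 0.00546). Virgin pools of Egr1 spread over more than 1 log2 unit, yet all lay below the pregnant pools. Of 23 clock genes 1 rose (4.35%, against 3.81% of all genes), 2 fell (8.7%, against 4.69%) and 20 did not pass. Noct rose by 0.74, and Per3 and Ciart fell (-0.76 and -0.55). In the heat shock list 2 rose, 4 fell and 17 did not pass of 23; Hspb1, its relative Hspb6 and Hspa4l fell (-2.41, -0.83 and -0.83). Inhbb, an activin subunit, rose 4.93-fold (adjusted p = 0.00205) among 20 genes of that axis, 2 of which rose and 2 fell. Matrix genes of the basement membrane, Col4a1 and Col4a2, and the membrane protease gene Mmp14 rose by 0.78, 0.84 and 1.12. In the matrix list 3 of 32 rose (9.38%, against 3.81% of all genes) and 1 fell (3.12%, against 4.69%). Noct, Per3, Ciart and Col4a1 had their calls undone by leaving out 1 array (adjusted p from 0.0566 to 0.137, without virgin pool 2).

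Each of the lists that follow had at most 3 genes called in either direction, in some of them a share above that over all genes. Proteasome subunits had 0 of 31 up and 0 down in limma (0 higher and 1 lower at an unadjusted p under 0.05), and ribosome biogenesis and translation genes 0 of 37 up and 1 down (10 higher and 1 lower before adjustment). Interferon-induced genes had 0 up and 3 down of 32 (9.38% lower, against 4.69% of all genes), the guanylate-binding and related GTPase genes Gbp3, Igtp and Gbp2 (-0.77, -0.71 and -0.69). Of 13 MHC class II genes 0 passed (1 higher and 3 lower before adjustment), with Cd74, the invariant chain, at 9.63, 10.02 and 9.97 in virgin and 8.83, 8.88 and 9.74 in pregnant pools (-0.72, adjusted p = 0.0926). Pregnant pool 3 of Cd74 lay near the virgin pools. Chemokine and receptor genes had 3 of 28 up (10.7%, against 3.81% of all genes), among them Ccl9 and Cxcl11 (1.17 and 0.95), and 2 down, Cxcl14 and Ccl27a (-2.34 and -0.76). Vascular growth genes had 1 of 33 up (3.03%, against 3.81% of all genes), the growth factor gene Pdgfa (1.35), and 2 down (6.06%, against 4.69%). Gbp3 and Gbp2 lost their calls when 1 array was left out, with the highest values without virgin pool 2 or pregnant pool 1 (adjusted p = 0.0622 and 0.141). The other probe set of Cxcl11 had a change of 0.067 and did not pass.

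The label liver was borne out by hepatocyte markers, all 19 of which were above 4.6 in virgin liver. The albumin gene Alb was at 14.52, 14.55 and 14.53 in virgin and 14.55, 14.52 and 14.53 in pregnant pools, and the summed level of the list was 17.9, 17.9 and 17.9 and 17.9, 17.9 and 17.9 (log2). Of these markers 4 rose, 1 fell and 14 did not pass. Among the other cell types the neutrophil list had the most calls. Of 14 neutrophil markers 7 rose, 0 fell and 7 did not pass, with a median of 0.71 (log2; 0.72 within pools 1 and 2 and 0.51 within pool 3), and their summed log2 level was 9.59, 9.77 and 9.67 in virgin and 10.3, 11.2 and 10.7 in pregnant pools. S100a8 went from 6.93, 7.14 and 6.90 to 8.38, 8.78 and 8.32, S100a9 by 1.28 and the granule genes Ngp and Chil3 by 1.89 and 1.81. All pregnant pools lay above the virgin pools, with pregnant pool 2 the highest in the sum. Of 14 Kupffer cell markers 1 fell (Timd4, -0.64), or 7.14% against 4.69% of all genes, and 0 rose, with a median of -0.35 (log2; -0.39 within pools 1 and 2 and -0.14 within pool 3). Erythroid genes had 2 of 14 up (Alas2, the erythroid haem synthesis enzyme, and Bpgm, by 1.16 and 0.68) and 1 down, and 7 of the 14 lay below 4.6 in virgin liver. Timd4 did not pass in every fit with 1 array left out (adjusted p = 0.0858, without virgin pool 3). Chil3 had a mean level below 4.6 in virgin liver.

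Platelet markers Ppbp and Pf4 rose by 2.02 and 0.60, while the receptor gene Clec1b fell by 0.71 (3 of 11 up, 1 down). The summed log2 level of the platelet list was 9.56, 9.62 and 9.64 in virgin and 9.86, 10.2 and 10.2 in pregnant pools. Vwf is itself a member of this list and adds to the sum. The part of platelets in the rise of Vwf was not tested. Among 17 endothelial markers 1 rose (Stab2, 0.38), or 5.88% against 3.81% of all genes, and 0 fell. Of 11 natural killer markers 1 fell (Gzmb, -0.70), or 9.09% against 4.69% of all genes. Of 20 pancreatic acinar genes 3 rose, Pnliprp1, the elastase gene Cela3b (2.73) and the colipase gene Clps (0.70), and Cela1 fell (-1.35). The 3 further probe sets of Cela3b were called higher too, with larger changes of 3.45 to 6.12. The summed log2 level of the acinar list was 10.5, 10.7 and 10.8 in virgin and 10.5, 10.4 and 10.7 in pregnant pools. Members with high levels weigh most in such a sum, and 12 of the 20 lay below 4.6 in virgin liver. In the cholangiocyte list Tff2, a trefoil peptide like Tff3, was the 1 of 10 genes that rose (2.03). Pf4, Stab2 and Clps had their calls undone by leaving out 1 array (adjusted p from 0.0789 to 0.128, without virgin pool 1 or 3 or pregnant pool 2).

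Ighm, the immunoglobulin heavy chain of naive B cells, was at 10.28, 10.54 and 10.49 in virgin and 8.56, 8.85 and 9.18 in pregnant pools (adjusted p = 0.000339). Its probe set carries a suffix for shared sequence, and the probe set without one had a change of 0.51. Of its 10 further probe sets 5 had the opposite sign and 1 of these was called higher. The B and T cell genes Cd79a and Cd3e had levels of 5.13, 5.11 and 5.56 and 5.39, 5.10 and 5.16 and of 5.81, 5.76 and 5.52 and 5.76, 5.71 and 5.69, with overlapping groups, in a strain that lacks mature lymphocytes. Among 12 lymphocyte markers 1 rose, 1 fell and 10 did not pass. Of 17 placental prolactin family genes 0 passed in limma (1 higher and 0 lower before adjustment), and all had means below 4.6 in both groups, with a summed log2 level of 7.13, 7 and 7.03 in virgin and 7.22, 7.1 and 7.06 in pregnant pools.

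**Figure D5:**
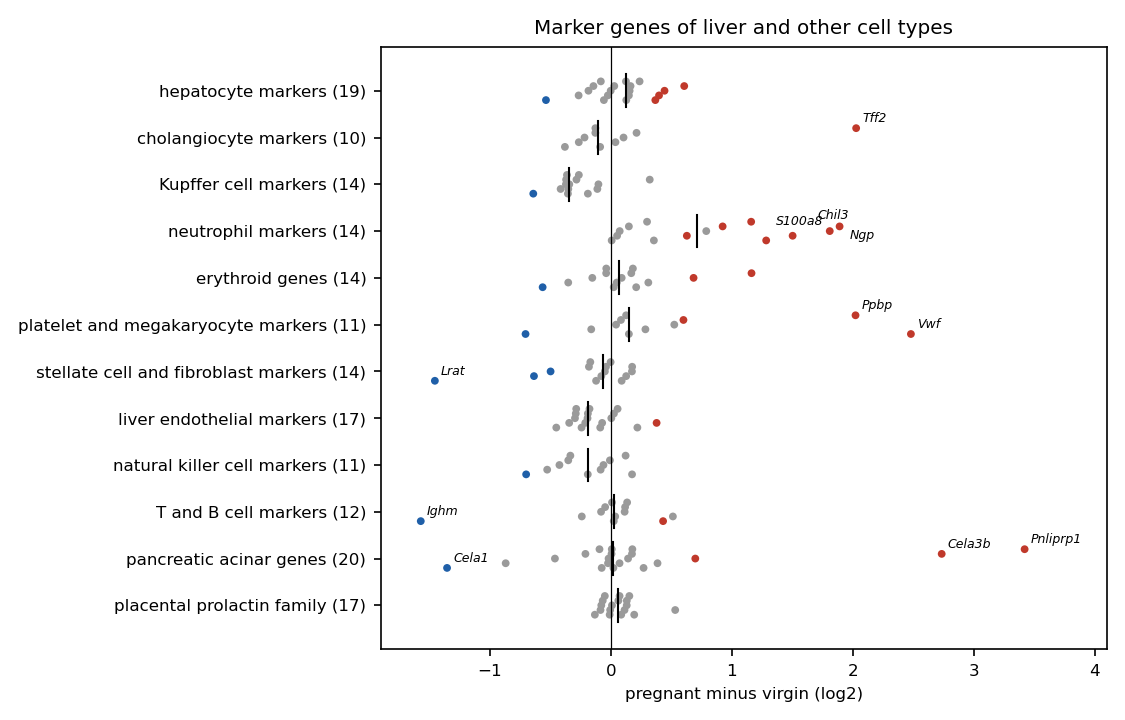
Log2 change of each measured marker gene of 12 lists (number measured in brackets), with the list median as a black bar. Red marks genes called higher, blue genes called lower and grey the rest, and genes called with a change beyond 1.3 are named. Neutrophil markers have 7 red points of 14, while placental prolactin genes have none of 17.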

How the data were processed

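Expression was measured on 12 one-colour arrays of lung and liver, of which the 6 liver arrays were used, and their number limits the precision. Values deposited for them are log2 levels that the authors computed with RMA and the affy package, per the submitters' processing notes, and which arrays were normalized together is not given in the sources used here. Of 45101 probe sets 64 were controls. The platform annotation gave 34945 of the others a single symbol, 932 several and 9160 none, and the latter 2 kinds were left out. A single probe set stood for each of 18193 genes, 9010 of which had more than 1. Both group means were fitted with limma 3.58.1 in R 4.3.3 (4 residual and 5.32 prior degrees of freedom), without a filter on dim genes, after the steps were tested on simulated data. P-values were adjusted over all genes by the Benjamini-Hochberg method and called under 0.05. The members and the 67 lists (1902 entries, 1721 measured, 1500 distinct genes) were chosen with earlier results of these data known. The naming rule took the 15 largest rises and the 15 largest falls without overlap, and up to 5 called members per list, or 2 where none was called. Genes named besides these, among them all that did not pass except Cd74, were chosen after their values were seen. The summed level of a list is the log2 of its summed linear levels. Promoters of RefSeq (GRCm38.p6) were matched by symbol. Alternatives were the pool number as a block, a term for pool 3, all 12 arrays, no pool 3, a filter on dim genes, other choices of probe set, median centring, quantile normalization, a variance trend with robust moderation, a stricter threshold and leaving out each array.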

Additional observations from a re-analysis of the deposited data

How the results depend on the processing

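The 1547 calls (693 higher, 854 lower) rested on few pools. With an adjusted p under 0.01 there were 734 (336 higher, 398 lower), without both pool 3 arrays 756 (324 higher, 432 lower) and with all 12 arrays in the fit 2450 (1089 higher, 1361 lower). Leaving out 1 array in turn gave 934 (without virgin pool 1) to 1408 calls (without pregnant pool 3), with 427 to 571 higher and 498 to 837 lower, and 966 and 963 in all without virgin pools 2 and 3. Genes called at least 2-fold numbered 312 to 331 in these fits against 320. A variance trend with robust moderation gave 1315 lower genes, and all probe sets gave 485 calls of at least 2-fold. The cause of these shifts was not tested, beyond the fewer or more samples and probe sets that enter. A term for pool 3 gave 1581 calls. Under the other alternatives the counts stayed within 1.5 times. Of 243 called genes among the 249 that the naming rule took, 149 kept their calls under every alternative and 177 in every fit without 1 array. Signs turned for Vldlr (-0.0681 with the mean of its probe sets and -0.094 without suffixed ones) and, without suffixed probe sets, for Gas2 (0.16), Ighm (0.51), Tnfsf11 (-0.0753), Aldoc (0.0737) and the median of imprinted genes (0.005), which then rest on another probe set. Deviations from the group means correlated at 0.111, -0.109 and 0.091 between arrays with the same pool number (1, 2 and 3). Between arrays with different numbers they correlated at -0.198 to 0.108. With 3 arrays per group these values cannot show whether the numbers pair the pools, and both pool 3 arrays shared the low spike-in signal. The fit with the pool number as a replicate block called 1338 genes (7.35%), kept 1243 of the 1547 and 228 of the 243. Levels below 4.6 limit the folds of dim genes.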

Other observations

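Several genes outside all of the lists changed as much as those described, and these were chosen after their values were seen. Serpina7, the carrier of thyroid hormone in plasma, fell by 1.50 while the corticosteroid carrier rose, and Rarres2, which encodes the chemoattractant chemerin, fell from 11.53, 11.82 and 11.64 to 9.78, 9.66 and 10.09 (adjusted p = 5.97e-05). Mid1ip1, which activates acetyl-CoA carboxylase, fell by 1.68 and the plasma membrane peptidase gene Enpep (-1.47). Fkbp11, a prolyl isomerase of the endoplasmic reticulum, rose 3.56-fold, the transcription factor gene Gata6 3.18-fold, the basement membrane gene Nid1 4.01-fold and the tetraspanin gene Cd9 3.56-fold (adjusted p = 3.74e-05, 3.04e-05, 7.65e-06 and 1.37e-05). Ndrg1, a differentiation and stress gene, went from 6.43, 6.71 and 6.85 to 8.89, 9.55 and 9.52, and the membrane protein gene Tmem64 from 8.76, 8.83 and 8.82 to 11.58, 11.71 and 11.66 (adjusted p = 4.29e-05 and 5.51e-07). Bpifa1, a secreted protein of airway epithelium, went from 3.35, 3.57 and 3.52 to 6.26, 5.86 and 6.82 (adjusted p = 5.84e-05), a virgin level below 4.6. All of these kept their calls whichever single array was left out.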
